A study of Mus musculus with 6 samples.

Results

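The Zfp genes of the mouse are a large set of genes named for zinc finger proteins, and the regions described here are those that a methylated DNA capture experiment on the mouse heart assigned to them. A region was taken when the gene symbol attached to it in the deposited table began with Zfp followed by a digit, and each position was counted once. This gave 801 regions, called Zfp regions below, at 241 gene symbols, out of 213957 distinct regions in the table, of which 101253 were read as peaks of captured DNA and 68634 of those carried a gene name. Among the 801 regions, 86 were also named for a gene outside the family and 5 for at least 2 Zfp genes. Genomic DNA came from ventricles of male C57BL/6 mice, with the atria removed and the septum left in place, at postnatal day 1 (P1, 3 libraries) and postnatal day 14 (P14, 3 libraries); the sample labels name the tissue as left ventricle. The labels name no treatment and no engineered allele for either group. Fragments were enriched with a protein domain that binds methylated CpG sites and then sequenced (MBD-seq), so that a value is a number of captured reads, which depends on the number of methylated CpGs in a fragment and on the capture of each library, and is not a methylation level. The labels call the libraries biological replicates and do not say whether each came from 1 animal or a pool, and the make-up of the tissue cannot be checked with expression markers in DNA capture data.

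Most proteins of this family bind DNA through tandem C2H2 zinc fingers, and a large share of them also carry a KRAB domain, which recruits the corepressor TRIM28 (KAP1), the histone methyltransferase SETDB1 and heterochromatin proteins, best known for silencing retrotransposons. KRAB zinc finger genes multiplied by tandem duplication and therefore lie in clusters of similar genes, whereas many Zfp genes with roles in cell fate stand alone in the genome. The symbol is a naming group and not a single protein family, since Zfp36 and its relatives bind RNA and promote mRNA decay through a different type of zinc finger.

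The starts of Zfp genes were rarely captured. The promoter window used here runs from 250 bases before to 50 bases after a RefSeq transcript start (assembly GRCm38.p6). A peak of any name overlapped 9 of 420 such windows of Zfp genes (2.14%), against 2491 of 32851 windows of all genes (7.58%). The motif CG, which reads the same on both strands, occurred in 99.8% of Zfp windows and in 94.6% of all windows, with a median of 13.5 CpGs per Zfp window and 7 per window over all genes. The 9 overlapped Zfp windows had a median of 9 CpGs and the others a median of 14. By arrangement, 1.27% of 237 windows of clustered genes and 3.36% of 149 windows of isolated genes were overlapped. Of these, 6 windows from RefSeq are printed to show both situations, 5′ to 3′ on the strand of the gene, with each CpG in capitals. The first 3 lie under a peak: Zfp180 (chr7:24081647-24081946, plus strand, 12 CpGs), Zfp783 (chr6:47942925-47943224, plus strand, 26 CpGs) and Zfp652 (chr11:95748817-95749116, plus strand, 5 CpGs). The other 3 do not, although each of these genes had a region with more captured reads at P14 further into the gene: Zfp467 (chr6:48445041-48445340, minus strand, 18 CpGs), Zfp316 (chr5:143269973-143270272, minus strand, 25 CpGs) and Zfp653 (chr9:22071327-22071626, minus strand, 22 CpGs). The windows were chosen after their values were seen.
Zfp180: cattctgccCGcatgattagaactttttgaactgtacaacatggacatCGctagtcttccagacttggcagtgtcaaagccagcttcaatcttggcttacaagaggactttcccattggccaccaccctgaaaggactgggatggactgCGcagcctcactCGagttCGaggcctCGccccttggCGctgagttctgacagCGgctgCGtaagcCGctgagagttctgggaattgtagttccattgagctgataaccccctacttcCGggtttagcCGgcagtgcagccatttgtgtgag
Zfp783: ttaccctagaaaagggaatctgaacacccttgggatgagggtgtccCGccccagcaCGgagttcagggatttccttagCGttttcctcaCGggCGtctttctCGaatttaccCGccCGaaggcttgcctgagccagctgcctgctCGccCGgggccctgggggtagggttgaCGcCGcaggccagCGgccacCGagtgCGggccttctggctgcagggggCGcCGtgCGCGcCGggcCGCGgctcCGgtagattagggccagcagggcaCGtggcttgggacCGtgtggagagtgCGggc
Zfp652: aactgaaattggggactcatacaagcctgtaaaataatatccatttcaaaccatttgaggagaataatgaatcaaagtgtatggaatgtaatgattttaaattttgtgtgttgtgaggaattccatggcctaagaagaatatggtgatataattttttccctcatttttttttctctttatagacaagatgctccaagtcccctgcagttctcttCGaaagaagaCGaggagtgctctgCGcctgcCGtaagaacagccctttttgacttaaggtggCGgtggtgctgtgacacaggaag
Zfp467: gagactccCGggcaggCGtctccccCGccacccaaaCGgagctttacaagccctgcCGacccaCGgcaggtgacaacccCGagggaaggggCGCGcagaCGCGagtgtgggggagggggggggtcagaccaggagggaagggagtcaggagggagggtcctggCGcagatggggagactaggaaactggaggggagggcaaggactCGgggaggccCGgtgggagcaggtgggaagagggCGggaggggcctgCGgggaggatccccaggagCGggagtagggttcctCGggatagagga
Zfp316: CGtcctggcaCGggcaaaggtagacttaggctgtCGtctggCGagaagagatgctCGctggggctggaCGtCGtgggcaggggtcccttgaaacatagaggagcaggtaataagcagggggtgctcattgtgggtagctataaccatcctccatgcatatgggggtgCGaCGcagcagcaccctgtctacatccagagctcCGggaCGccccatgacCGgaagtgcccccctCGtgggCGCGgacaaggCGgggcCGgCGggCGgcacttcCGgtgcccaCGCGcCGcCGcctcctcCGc
Zfp653: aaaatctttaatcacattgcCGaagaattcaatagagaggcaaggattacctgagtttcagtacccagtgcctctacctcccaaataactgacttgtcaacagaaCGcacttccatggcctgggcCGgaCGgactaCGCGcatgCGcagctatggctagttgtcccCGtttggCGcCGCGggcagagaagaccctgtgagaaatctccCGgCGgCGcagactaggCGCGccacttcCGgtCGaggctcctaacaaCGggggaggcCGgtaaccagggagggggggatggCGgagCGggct

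The peaks over the first 3 of these windows were tested with all others. At Zfp783 the region at the start held 5, 6 and 5 reads in the P1 libraries and 44, 17 and 9 at P14 (replicates 1 to 3), a log2 change of 0.90 with an adjusted p of 0.914 (edgeR quasi-likelihood test, Benjamini-Hochberg over all peaks tested). At Zfp180 the counts were 10, 17 and 5 at P1 and 89, 30 and 22 at P14 (log2 change 0.92, adjusted p = 0.527 by the same edgeR test). At Zfp652 they were 36, 29 and 41 at P1 and 108, 59 and 42 at P14 (log2 change -0.15, adjusted p = 1). None of these 3 regions passed the threshold, and the reads at P14 were highest in replicate 1, the library with the largest share of reads in peaks.

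The libraries held between 16284216 and 21512072 reads, and the share of them that fell in peaks was 11.58%, 13.39% and 12.59% at P1 and 31.31%, 18.39% and 16.99% at P14. P14 replicate 1 stood apart from the other 5 libraries, and the age groups did not overlap, so a region can hold more reads at P14 with no change relative to other peaks. Read values are therefore given as counts and as CPM, the library's reads in a region relative to its TMM-scaled total in peaks, and age differences are given first relative to all peaks. Every fold change below is relative to that scale, on which the median log2 change over all peaks tested was -0.01; scaling to the reads between peaks in place of the reads in peaks moved this median to 1.18.

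The regions were counted for clustered and isolated Zfp genes, and no test was made of differences between these counts. Genes were placed by their RefSeq spans and chained where neighbours lay within 500 kb: 3 or more genes made a cluster, a chain of 2 a pair, and a gene with no other in reach was called isolated. Of 255 clustered genes 125 (49%) had a Zfp region, of 138 isolated genes 96 (69.6%), and of 32 paired genes 20 (62.5%). Clustered genes with a region had a median of 1 region each and at most 7, while isolated genes had a median of 2 and up to 61, so that isolated genes held 528 of the 801 regions, clustered genes 198 and pairs 75. Among genes with a region, the regions inside gene spans numbered 8.33 per 100 kb of span for clustered, 9.06 for isolated and 11.9 for paired genes. The genes without a region, 130 clustered, 42 isolated and 12 paired, do not enter these densities. Genes with 10 or more regions numbered 14 and together held 326 regions.

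Of the 36 clusters, 6 had no Zfp region at all. These 6 hold 36 genes over 4957.1 kb, in which the table has 40 peaks of any name, or 8.07 per Mb, against 55 per Mb in the other clusters. Cluster 4a (clusters are named by chromosome and a letter in order along it), at chr4:145510759-147849126, is the largest of them, with 16 Zfp genes and 33 peaks that carry other names or none. Cluster 2c, at chr2:175372034-176681090, has 6 genes and no peak. Both were chosen after their values were seen. Among all 184 placed Zfp genes without a Zfp region, 154 had no peak of any name in their span. Some of these genes have near-identical copies, among which sequencing reads of 36 cycles may not have been placed, and some appear in the table under older symbols; the part of either in these counts was not tested.

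**Figure D1:**
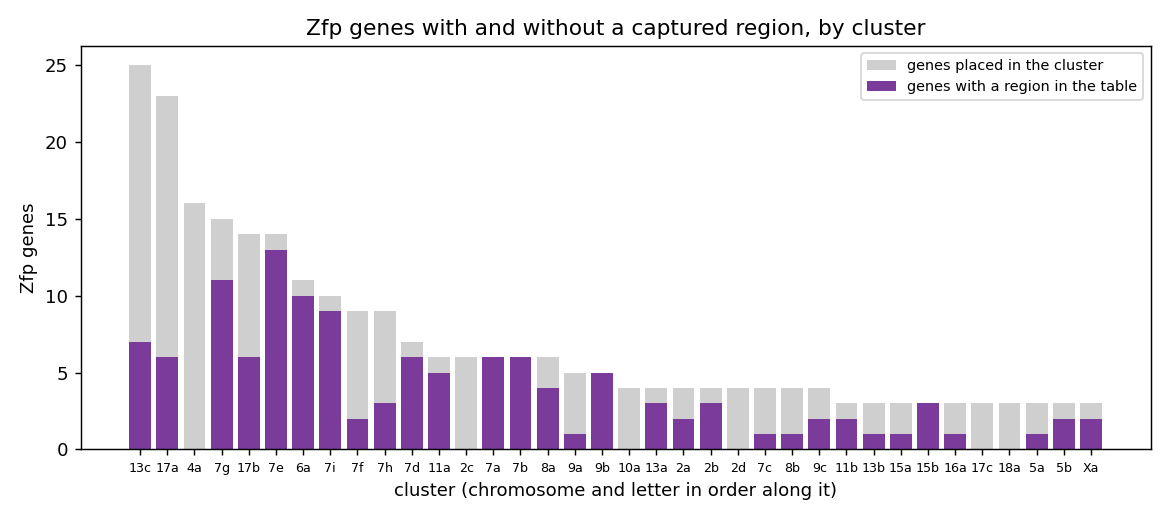
Zfp genes placed in each of the 36 clusters (grey bars, number of genes on the vertical axis) and those with a region in the table (purple bars), with clusters ordered by size along the horizontal axis. In 6 clusters no gene had a region, while in cluster 7e 13 of 14 and in cluster 6a 10 of 11 had one.

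Zfp regions lay mostly in gene bodies away from the start. Inside the RefSeq span of the named gene were 727 regions and outside it 74. Of the 507 regions with a position along a gene of known strand, 4.73% had their midpoint in the first 10% of the gene, 62.5% beyond its middle and 33.3% in the last 25%. The same shares over 41609 peaks named for 1 gene and inside it were 5.72%, 61.6% and 34.8%, so the positions along the gene were close to those of peaks at genes in general. The median distance from a region to the nearest start of its gene was 6.7 kb for clustered and 27.8 kb for isolated genes. It covers the 169 regions of clustered and 360 of isolated genes for which a start was available. Clustered and isolated genes with a region had median spans of 14.9 kb and 23.5 kb. The spans count each gene once, while genes with many regions weigh more in the distances. The median width of regions at clustered genes was 1151 bp, against 899 bp at isolated genes, 1020 bp in pairs and 852 bp over all peaks.

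Captured reads were denser at clustered than at isolated Zfp genes in every library. Density in regions of clustered genes was 11.89, 11.43 and 10.43 CPM per kb at P1 and 13.73, 11.65 and 10.61 at P14. In regions of isolated genes it was 10.13, 9.513 and 9.334 at P1 and 10.26, 9.5 and 9.148 at P14. The ratio of clustered to isolated density was 1.173, 1.201 and 1.118 at P1 and 1.337, 1.227 and 1.16 at P14, above 1 in 6 of 6 libraries. Its log2 was 0.219 ± 0.0529 at P1 and 0.309 ± 0.104 at P14 (SD, n = 3 each), a difference of 0.0907 that the exact two-sided permutation test over libraries did not separate from 0 (p = 0.3, where 0.1 is the smallest p that 3 against 3 libraries allow). The higher density was found among regions of 1000 bp or wider, where the log2 ratio ran from 0.16 to 0.43 over the libraries, while in narrower regions it ran from -0.09 to 0.03. In those narrower regions, and when the median over regions replaced the sum, the age difference of the log2 ratio had the opposite sign, at -0.04 and -0.06.

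**Figure D2:**
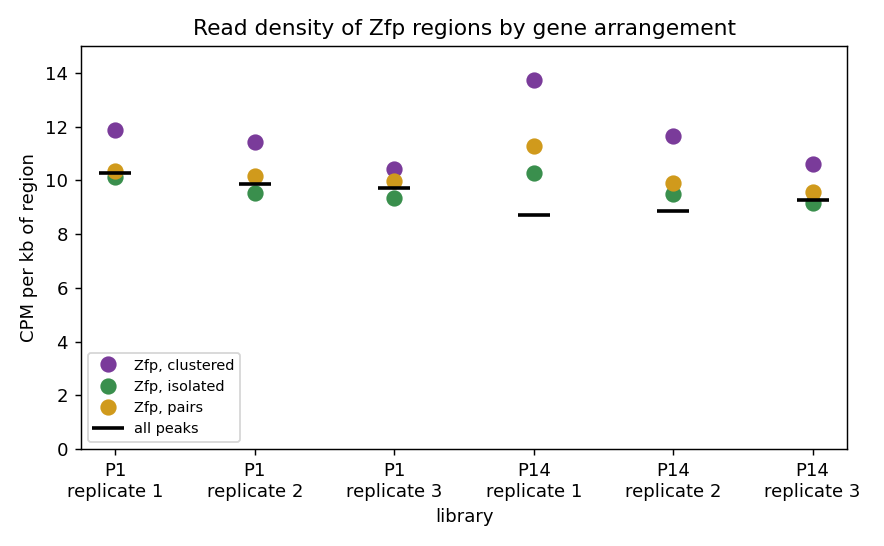
Read density (CPM per kb of region, vertical axis) in each of the 6 libraries for regions of clustered, isolated and paired Zfp genes (points) and for all peaks (bars). The clustered regions lie above the isolated ones in 6 of 6 libraries, from 10.43 to 13.73 against 9.148 to 10.26.

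The share of reads that lay in Zfp regions depended on what it was a share of. They held 0.9239%, 0.9142% and 0.8894% of the reads in peaks at P1 and 1.16%, 1.018% and 0.9212% at P14. The means were 0.909 ± 0.0178% and 1.03 ± 0.12% (SD, n = 3 each), with P14 replicate 3 inside the range of P1, and the exact permutation p was 0.2. Without P14 replicate 1 the difference of 0.124 percentage points was 0.06. Of all reads, in and between peaks, Zfp regions held 0.107%, 0.1224% and 0.1119% at P1 and 0.3632%, 0.1872% and 0.1565% at P14. On this scale the ages did not overlap, with means of 0.114 ± 0.00786% and 0.236 ± 0.112% (exact permutation p = 0.1, the smallest possible), as the share of all reads in peaks did not overlap either.

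Few Zfp regions differed between the ages relative to other peaks. Of the 801 regions, 775 passed the filter on low counts, and 21 of them (2.71%) passed an adjusted p of 0.05 in the edgeR quasi-likelihood fit over all peaks, beside 2.55% of the 96772 peaks tested. Regions with more reads at P14 (gained) numbered 5, or 0.645%, beside 0.105% of all peaks and 0.142% of peaks with a gene name. Regions with fewer (lost) numbered 16, or 2.06%, beside 2.44% of all peaks and 2.14% of peaks with a gene name. The lost share was thus near that of peaks in general, and the gained share rests on 5 regions. At an unadjusted p under 0.05 there were 79 Zfp regions (10.2%), beside 7.6% of all peaks. The CPM of all 3 P14 libraries lay above all 3 of P1 in 58 Zfp regions (7.48%, beside 4.77% of peaks) and below them in 60 (7.74%, beside 7.12%).

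By arrangement, clustered genes had 3 gained and 3 lost of 191 tested regions, isolated genes 1 gained and 13 lost of 512, and pairs 1 gained and none lost of 72. The gained region in pairs was named for Zfp652, which is paired only with the antisense symbol Zfp652os. The median log2 change was 0.05 at clustered genes, -0.00 at isolated genes and 0.02 in pairs, beside 0.01 over Zfp regions and -0.01 over all peaks tested. Of the tested Zfp regions, 396 of 775 (51.1%) had a positive log2 change, beside 49.2% of all peaks.

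**Figure D3:**
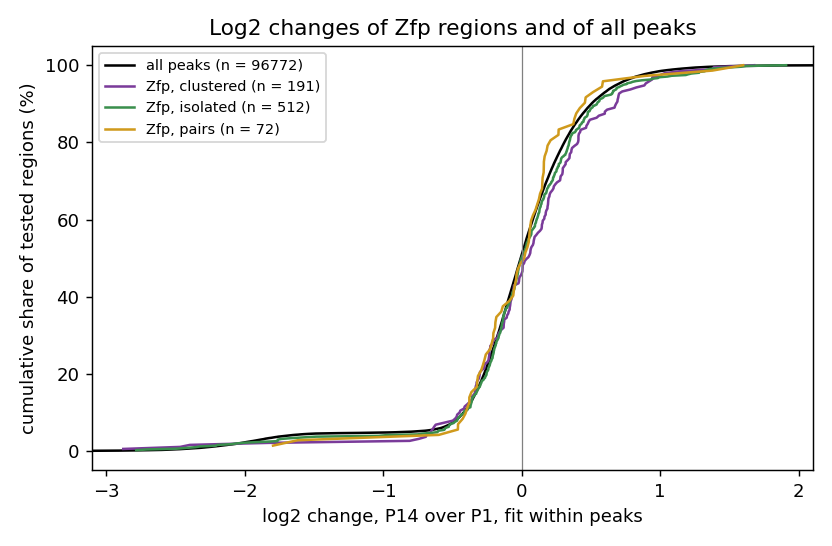
Cumulative share of tested regions (vertical axis, percent) against the log2 change from P1 to P14 in the fit within peaks (horizontal axis, drawn from -3.1 to 2.1) for all peaks and for clustered, isolated and paired Zfp regions. The curves run close together, with medians between -0.01 and 0.05.

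The calls rested on a few libraries. None of the 21 passed when P14 replicate 1 was left out, nor did any of the 96892 peaks tested in that fit. Without P14 replicate 2, none of the 21 and none of the 98844 peaks tested passed. The log2 changes kept their sign in every leave-one-out fit. As the 21 were chosen by a test on these same libraries, this adds no support to the calls. Without P1 replicate 1 there were 11 called Zfp regions, 4 gained and 7 lost (0.76% of peaks were called in that fit, and 1.39% of Zfp regions), and without P14 replicate 3 there were 13 (1.64%, beside 0.732% of peaks). Scaled to the reads between peaks, 88 Zfp regions were gained and 0 lost, 11.4% of those tested beside 7.52% of all peaks gained and 0.0527% lost. That scaling moved log2 changes upward, so the gained regions could not change sign in it. The 16 lost regions stayed negative, with log2 changes closer to no change, and none of them passed there.

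Zfp467, which encodes a zinc finger factor known for promoting adipocyte over osteoblast fate in stromal cells, had the gained region of smallest p. This region, chr6:48437155-48439662 (GRCm38, mm10), lies inside the gene in cluster 6a, and 5.4 kb from the RefSeq start whose window is printed above. It held 34, 41 and 21 reads in the P1 libraries and 367, 138 and 83 at P14, or 15.2 ± 4.9 and 38.9 ± 10.9 CPM (SD, n = 3 each). All 3 P14 libraries lay above all 3 P1 libraries in CPM. The log2 change was 1.37 with a standard error of 0.28 and an adjusted p of 0.0242 (edgeR quasi-likelihood test with Benjamini-Hochberg adjustment). The neighbouring region of the same gene, at chr6:48439995-48440795, had 5, 15 and 9 reads in the P1 libraries and 39, 16 and 8 at P14, with a log2 change of -0.08 that did not pass.

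Zfp316 gained reads over chr5:143252139-143255800, which lies inside the gene in cluster 5b. The counts were 25, 38 and 20 at P1 and 350, 94 and 78 at P14, or 13.1 ± 4.0 and 33.7 ± 13.1 CPM. The groups did not overlap in CPM, and P14 replicate 1 was the highest library at 48.70 CPM. The log2 change was 1.39 (standard error 0.30, edgeR adjusted p = 0.0262). The other 6 regions of the gene, 2 of them within 1 kb of its start, had log2 changes from -0.23 to 0.32 and did not pass.

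Zfp653 is in cluster 9b and gained reads over chr9:22056979-22058333, 13.0 kb from its start and in the last part of the gene. It held 5, 14 and 7 reads in the P1 libraries and 122, 52 and 22 at P14, or 4.0 ± 2.0 and 12.8 ± 4.6 CPM. The lowest P14 library (7.94 CPM) lay above the highest P1 library (6.32 CPM). The log2 change was 1.68 (standard error 0.40, edgeR adjusted p = 0.0328).

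The gained region assigned to Zfp652, a transcriptional repressor gene, lies at chr11:95830141-95831709, 65.4 kb beyond the RefSeq span of that gene and over the spans of Phospho1 and Abi3, for which the table also names it. It held 21, 12 and 13 reads in the P1 libraries and 161, 75 and 40 at P14, or 7.4 ± 3.0 and 18.8 ± 4.0 CPM, with no overlap between the ages. The log2 change was 1.38 (standard error 0.31, edgeR adjusted p = 0.0284). A further region 1.6 kb on, at chr11:95833357-95834506, had 3, 9 and 7 reads in the P1 libraries and 88, 29 and 19 at P14, with a log2 change of 1.60 and an adjusted p of 0.0599 by the same edgeR test, just outside the threshold. The peak over the RefSeq start used here for Zfp652 did not pass, as given above. Of the 13 regions named for this gene, only 3 lie inside its RefSeq span of 15.6 kb.

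The fifth gained region belongs to Zfp423, a transcriptional regulator known from preadipocyte commitment and cerebellar development and the Zfp gene with the most regions. It lies at chr8:87731963-87732709, 71.7 kb from the nearest of the gene's 2 RefSeq starts with a window. It held 3, 4 and 7 reads in the P1 libraries and 84, 23 and 19 at P14, or 2.2 ± 0.9 and 8.2 ± 3.1 CPM. The groups did not overlap. The log2 change was 1.91 (standard error 0.48, edgeR adjusted p = 0.0404), and the region passed in 0 of 6 fits that left out 1 library.

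The 16 lost regions had a median width of 789 bp and the 5 gained ones 1569 bp. Lost regions were thinly captured, with a median of 19.9 reads per kb averaged over the libraries. That median was 31.2 in gained regions, 29.6 in Zfp regions tested and not called, and 20.2 in all lost peaks. The lost regions' median read number fell from 22.5 at P1 to 8.7 at P14, while that of the gained went from 15.3 to 92.0. P1 replicate 1 was the highest of the P1 libraries in CPM in 12 of the 16 lost Zfp regions (75%), in 82.3% of all lost peaks and in 39.7% of Zfp regions tested and not called. By contrast, 21 of the 801 Zfp regions had no read in P1 replicate 1, against 0 in P1 replicate 2 and 1 in P1 replicate 3.

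The largest loss was at Zfp110, which encodes a protein that interacts with the p75 neurotrophin receptor. The region, at chr7:12850337-12850957 and across the end of the gene in cluster 7d, held 22, 14 and 12 reads in the P1 libraries and 4, 3 and 6 at P14, or 7.7 ± 3.2 and 1.2 ± 0.9 CPM (log2 change -2.88, standard error 0.60, edgeR adjusted p = 0.0251). Zfp606, in the same cluster, lost reads at chr7:12493667-12494461, from 32, 14 and 17 to 8, 5 and 11 (log2 change -2.39). The third loss at a clustered gene was 0.7 kb from the start of Zfp667 in cluster 7b, at chr7:6285246-6285930, from 37, 11 and 16 reads to 11, 10 and 4 (log2 change -2.47). In each of the 3 the ages did not overlap in CPM, and P1 replicate 1 was the highest library.

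Among isolated genes, Zfp827, whose human counterpart is known for recruiting a chromatin remodelling complex to telomeres, lost reads at chr8:79126107-79126995, inside the gene. The counts were 32, 19 and 27 at P1 and 4, 8 and 10 at P14, or 12.5 ± 4.0 and 2.1 ± 1.5 CPM (log2 change -2.78, standard error 0.51, edgeR adjusted p = 0.0242). This loss and that at Zfp407 passed in 4 of 6 leave-one-out fits, which no other of the 21 regions exceeded. Zfp703, a transcriptional cofactor gene known from luminal breast cancer, lost reads over chr8:26974169-26974914, which lies 2.4 kb outside its RefSeq span, from 35, 13 and 16 to 7, 5 and 8 (log2 change -2.71, standard error 0.55, edgeR adjusted p = 0.0242). Its second region, chr8:26979133-26980288, inside the span, held 19, 16 and 11 reads in the P1 libraries and 147, 53 and 17 at P14 and did not pass (log2 change 0.94, adjusted p = 0.401).

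Zfp395 lost reads at chr14:65377145-65377673, from 45, 6 and 12 to 13, 8 and 4 (log2 change -2.49). In this region P1 replicate 1 had 23.18 CPM and the other P1 libraries 2.71 and 5.51; without that library the log2 change was -1.16 with an edgeR adjusted p of 0.781. Zfp664 lost reads at chr5:124888617-124889375, near the end of the gene, from 36, 14 and 19 to 9, 14 and 4 (log2 change -2.42). Zfp438 lost reads at chr18:5301339-5301895, from 18, 21 and 14 to 10, 9 and 3 (log2 change -2.36). At Zfp438 the 3 P1 libraries were close to one another, between 6.43 and 9.49 CPM, and all 3 P14 libraries were at or below 2.34.

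The remaining losses were at Zfp407, Zfp521 and Zfp536, described with their genes below, and at Zfp3, Zfp131 and Zfp644, which are named here after their values were seen, with log2 changes of -2.20, -1.99 and -2.06. The groups did not overlap in CPM in any of the 21 called regions. These regions were chosen by a test on the same libraries, so the separation adds no support to the calls.

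**Figure D4:**
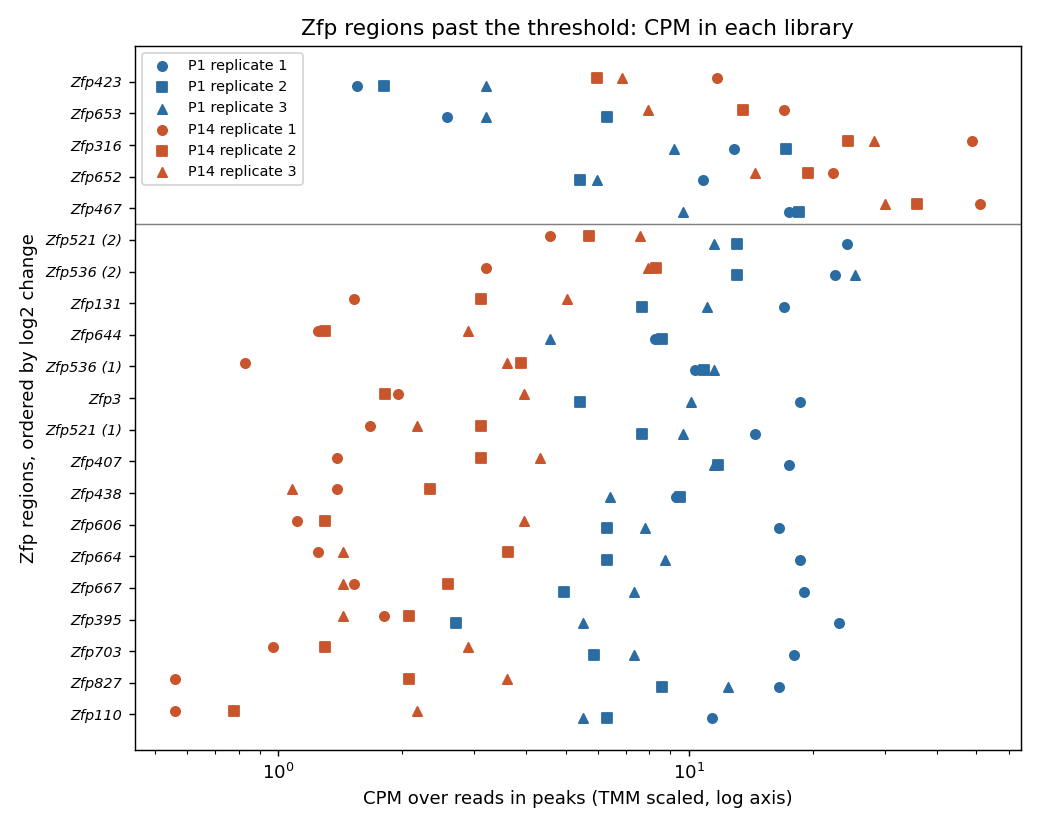
CPM over reads in peaks (horizontal log axis) in each of the 6 libraries for the 21 called Zfp regions, ordered by log2 change, with blue marks for P1 and orange for P14 and a grey line between lost (below) and gained (above). In no region do the 2 colours overlap, and P1 replicate 1 is the highest P1 library in 12 of the 16 lost regions. The regions shown were chosen by a test on these same libraries.

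In a fit over the whole table, in which the TMM factors are taken over peaks and the stretches between them together, most Zfp regions had more reads at P14 and none passed the threshold. Of 775 regions 747 had a positive log2 change, with a median of 0.75, beside 0.73 for all peaks in that fit, so Zfp regions moved with peaks in general. The smallest adjusted p among them was 0.214, and none of the 209063 regions tested passed (0% called). At an unadjusted p under 0.05 there were 273 Zfp regions (35.2%), beside 30.6% of peaks in that fit; DESeq2 called 5 of 801 Zfp regions (0.624%, beside 0.0308% of all regions), without an adjusted p for 337 of them. Shares of all regions in this paragraph include the stretches between peaks, while every Zfp region is a peak. In the fit with all libraries the median log2 change was 0.12 over all regions and 0.73 over all peaks. A share over peaks alone is given only for the unadjusted p. The edgeR likelihood ratio test called 36 higher at P14 (4.65%, beside 0.819% of all regions) and 4 lower (0.516%, beside 0.21%). Without P14 replicate 1, 16 Zfp regions were higher at P14 (2.07%, beside 0.122% of all regions) and 0 lower (beside 0.847%), with edgeR adjusted p-values from 0.0406 to 0.0475. These included Zfp467, Zfp316 and Zfp652 at the regions already described. Clustered genes held 10 of the 16, and 191 of the 775 Zfp regions tested with all libraries. The difference between these shares was not tested.

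The 3 clusters with the most regions were 7e, 6a and 7g. Each value here is a cluster's share of the reads in Zfp regions, so a cluster is compared with the other Zfp genes. Cluster 7e, at chr7:24081877-25227876 with 13 of 14 genes represented by 23 regions, held 4.513%, 4.659% and 4.067% at P1 and 4.858%, 4.609% and 4.708% at P14, and the ages overlapped (exact permutation p = 0.2). Cluster 6a, at chr6:47815536-48621548 with 22 regions, held 3.095%, 3.112% and 2.636% at P1 and 4.393%, 3.385% and 3.186% at P14. Every P14 library of 6a lay above every P1 library, at means of 2.95 ± 0.27% and 3.65 ± 0.65% (SD, n = 3 each). Cluster 7g, at chr7:29768552-30169775 with 17 regions, went the other way, with 4.387%, 4.035% and 4.486% at P1 and 3.25%, 3.703% and 3.735% at P14. For both the exact permutation p was 0.1, the smallest these libraries allow, and 0.364 after Benjamini-Hochberg adjustment over the 20 clusters with at least 3 regions; none of the 20 passed.

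Within these clusters the single regions mostly did not pass. In 6a, Zfp467 held the 1 called region of 22, and the median log2 change was 0.32; a region of Zfp775 at chr6:48619172-48621394, chosen after its values were seen, had 53, 66 and 32 reads in the P1 libraries and 507, 134 and 99 at P14 (log2 change 1.00, edgeR adjusted p = 0.0946). In 7g the median was -0.23 and none of 17 regions was called. Its gene Zfp568, known for repressing a placental transcript of Igf2, had 2 regions at -0.09 and -0.17. In 7e the median was 0.01. Cluster 7a, at chr7:4915181-5053723 and chosen after its values were seen, had the highest median of these, 0.51 over 8 regions, and shares of 1.742%, 1.775% and 1.436% at P1 and 3.324%, 2.601% and 1.797% at P14 (exact permutation p = 0.1, 0.364 adjusted), with none of its regions called.

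The densest Zfp regions did not differ between the ages beyond the threshold. The highest density, 90.5 reads per kb over the 6 libraries, was at chr7:24104088-24107277 in the last part of Zfp180, in cluster 7e. It held 183, 228 and 158 reads in the P1 libraries and 611, 340 and 213 at P14 (log2 change -0.11, edgeR adjusted p = 1). The next was at chr7:127610586-127612444 in Zfp629, at 84.0 reads per kb, with 56, 80 and 33 reads in the P1 libraries and 517, 165 and 86 at P14 (log2 change 0.89, adjusted p = 0.207). Zfp358, Zfp324 and Zfp574 followed at 79.4, 77.6 and 76.4 reads per kb, with log2 changes of 0.43, 0.69 and 0.94 and adjusted p-values of 1, 0.487 and 0.169. These densities are means of raw reads, and in each of the 5 regions P14 replicate 1 had the most reads, between 357 and 753. Over the P1 libraries alone Zfp180 was again the densest of the 801 regions, at 59.5 reads per kb, while Zfp358 ranked 23, Zfp324 66, Zfp629 77 and Zfp574 153. By mean CPM per kb, which gives each library the same weight, the ranks were 1 for Zfp180, 3 for Zfp358, 5 for Zfp629, 11 for Zfp324 and 14 for Zfp574. Of the 5 densest regions, 4 were at clustered genes, the exception being Zfp358.

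The 3 genes with the most regions named for them are all isolated and long. The span of Zfp469, which has no Zfp region, held 58 peaks that carry other names. Zfp423 had 61 regions along 300.2 kb (chr8:87661810-87962053). Of its 59 tested regions 38 had a positive log2 change, from -0.51 to 1.91 with a median of 0.20, and 1 was gained. In 11 of the 59 all P14 libraries lay above all P1 libraries in CPM (18.6%, beside 4.77% of all peaks tested) and in 1 below (1.69%, beside 7.12%). The largest changes after the gained region were at the far end of the gene, at chr8:87662101-87663255 (log2 change 1.62, adjusted p = 0.12) and chr8:87680488-87681019 (1.58, adjusted p = 0.315 by the edgeR test); these 2 were chosen after their values were seen.

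**Figure D5:**
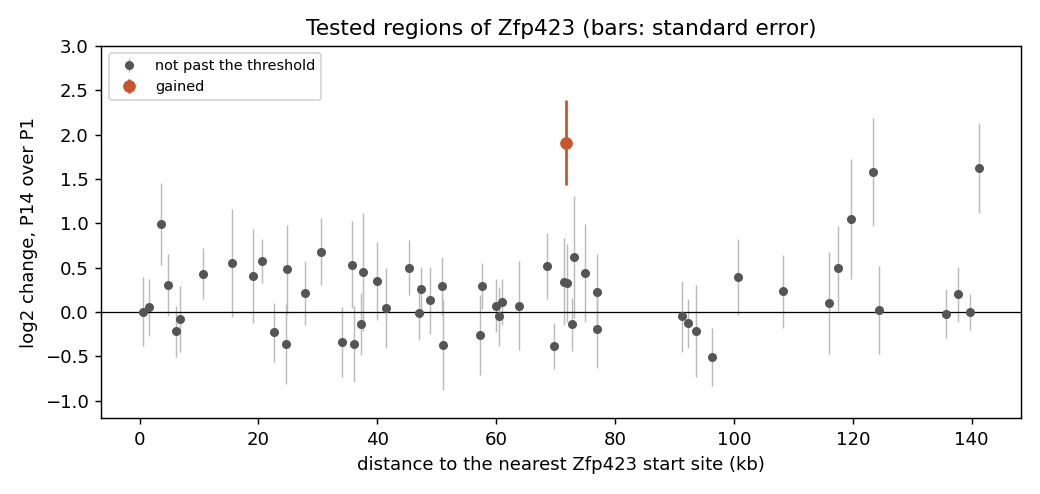
Log2 change from P1 to P14 (vertical axis, bars show the standard error) of the 59 tested regions of Zfp423 against the distance to the nearest start of the gene (kb, horizontal axis). Values run from -0.51 to 1.91, and 1 region, in orange at 71.7 kb, was gained.

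Zfp407, a nuclear factor known for its part in adipocyte glucose uptake, had 40 regions over a span of 381.8 kb on chromosome 18. Its log2 changes ran from -2.32 to 0.65 with a median of -0.07, and 15 of 39 tested were positive. The 1 lost region at chr18:84420736-84421632 had 34, 26 and 25 reads in the P1 libraries and 10, 12 and 12 at P14, or 13.6 ± 3.4 and 2.9 ± 1.5 CPM (log2 change -2.32, standard error 0.42, edgeR adjusted p = 0.0242). The lowest P1 library of this region (11.48 CPM) lay well above the highest P14 library (4.33 CPM).

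Zfp536, known for restraining neuronal differentiation, had 31 regions over 456.0 kb with a median log2 change of -0.04. Of these, 2 were lost. At chr7:37628065-37628956 the counts were 20, 24 and 25 at P1 and 6, 15 and 10 at P14 (log2 change -2.10, edgeR adjusted p = 0.0295). At chr7:37754801-37756394, which is 13.4 kb from the start, they were 44, 29 and 55 at P1 and 23, 32 and 22 at P14 (log2 change -1.73, edgeR adjusted p = 0.0242). In the first of these the P1 libraries were within 10.30 to 11.48 CPM, and P14 replicate 1 was the lowest library at 0.83.

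Of 20 Zfp genes listed for a known role, 16 had a region; Zfp281, Zfp36, Zfp36l1 and Zfp292 had none. Their 179 regions, which include those of the 3 genes above, gave 175 tested, of which 1 was gained (0.571%, beside 0.105% of all peaks) and 6 were lost (3.43%, beside 2.44%), with a median log2 change of 0.02. Zfp521, a regulator of neural and blood cell fate, had 2 of the losses among 17 tested regions. At chr18:13877991-13878869 it went from 28, 17 and 21 reads to 12, 12 and 6 (log2 change -2.21, standard error 0.44, edgeR adjusted p = 0.0242), and at chr18:13723008-13724065 from 47, 29 and 25 to 33, 22 and 21 (log2 change -1.48, adjusted p = 0.0299). Both lie inside the gene, and in both the CPM groups did not overlap.

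Other genes of this list did not pass. Zfp503, a developmental repressor gene known from the striatum, had 17, 13 and 8 reads in the P1 libraries and 112, 56 and 31 at P14 at chr14:21984479-21985913, a log2 change of 1.20 with an edgeR adjusted p of 0.0622. Its other region, at chr14:21990178-21991131 just upstream of the gene, had 4, 5 and 6 reads in the P1 libraries and 36, 23 and 20 at P14 (log2 change 1.32, adjusted p = 0.264). In both regions all P14 libraries lay above all P1 libraries in CPM. Zfp57, whose protein keeps methylation at imprinted control regions, had 1 region with 55, 32 and 42 reads in the P1 libraries and 101, 40 and 45 at P14 (log2 change -0.61, adjusted p = 0.6), and the ages overlapped. Zfp42 (Rex1), a marker of pluripotent cells, had 19, 35 and 19 reads in the P1 libraries and 132, 39 and 40 at P14 (log2 change 0.34, adjusted p = 1). Zfp809, which silences integrated retroviruses, had 1 region at 0.36, and the 3 regions of Zfp335 lay between -0.39 and -0.13.

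The corepressor genes that KRAB zinc finger proteins act through were counted from a list of 22 genes. Of these 16 had a peak named for them, with 84 regions tested, 0 gained and 4 lost (4.76%, beside 2.44% of all peaks), and a median log2 change of -0.11 with 30 of 84 positive, beside -0.01 over all peaks tested. Trim28 and Setdb1 had no region in the table. Pphln1, a member of the HUSH silencing complex, had 2 of the losses. Its region of smallest p, chr15:93485794-93486516, held 29, 23 and 23 reads in the P1 libraries and 17, 11 and 11 at P14 (log2 change -2.01, standard error 0.38, edgeR adjusted p = 0.0242). Cbx5, which encodes heterochromatin protein 1 alpha, went from 44, 25 and 39 reads to 21, 17 and 21 at chr15:103199120-103200049 (log2 change -1.89, standard error 0.37, adjusted p = 0.0242). The other loss was at Chd4, named after its values were seen to complete the count, with 19, 22 and 21 reads in the P1 libraries and 11, 14 and 8 at P14 (log2 change -1.93).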

How the data were processed

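MBD-seq libraries of 3 P1 and 3 P14 samples were grouped by the labels. Per the labels' protocols, 36-cycle reads were sequenced on a Genome Analyzer IIx; the genome build GRCm38 (mm10) and the tools edgeR 3.2.4, bedtools, MACS and BWA stand in the submitters' processing notes without roles. Values in the deposited table are the authors' read counts for each region, whole numbers not divided by depth or width; no region had a mean under 10 reads. How peaks were called and duplicate reads handled is not given in the sources here. Of 221524 lines, 7567 repeat a region for a further gene, leaving 213957 regions. These alternate as peaks and stretches between them, a reading inferred here from borders and gene names; 17551 regions were decided by read density alone, a rule that gave the same answer for 94.6% of the regions settled otherwise. Depth (16284216 to 21512072 reads) leaves a median Zfp region at 17.7 reads at P1 and 37.7 at P14.

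Age was tested with edgeR 4.0.16 (R 4.3.3, limma 3.58.1): quasi-likelihood F test, TMM, filterByExpr, Benjamini-Hochberg adjustment over all features tested, threshold 0.05, once over peaks and once over the whole table. The filter within peaks used library sizes of the whole table, a choice made after the result with in-peak library sizes had also been seen. On simulated data the fit within peaks found 60 of 100 4-fold changes and 8 of 100 2-fold changes, and 2 of its 70 calls were false. The fit of all regions found 56 and 1, and 4 of its 61 calls were false. The simulated libraries differed only in size and in the changes put in, without the difference in capture seen between the real ones. The false calls in the simulation therefore do not estimate those among the real calls. Shares and densities were compared with exact two-sided permutation tests. DESeq2 1.42.0 and other settings were alternatives. Genes were placed by RefSeq GRCm38.p6 symbol (229) or synonym (12); a further 184 RefSeq Zfp genes, without a region, shaped the clusters. Cluster 11b reaches 3 genes through an antisense symbol. Zfp652, with 13 of the 75 regions in pairs, is likewise paired only through an antisense symbol.

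The Zfp genes, the lists and the tests were chosen with earlier results of these data known. Regions named are the called ones (all gained, the 8 largest losses, the 3 smallest p each way), the 5 densest, the 3 clusters and 3 genes with most regions, 20 genes of known role and, of the corepressors, the 2 genes of smallest p.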

Additional observations from a re-analysis of the deposited data

How the results depend on the processing

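The count of called Zfp regions within peaks, 21, ran from 0 to 17 when single libraries were left out. It was 0 without P14 replicate 1 and without P14 replicate 2, fits in which 0 of all peaks passed as well. Without both replicates 1 it was 8 (1.06%, beside 0.573% of all peaks). It was 38 by the edgeR likelihood ratio test (16 gained, 22 lost; 4.9%, beside 4.27%) and 88 when scaled to the reads between peaks (88 gained, 0 lost); DESeq2 gave 29 (3.62%, beside 3.26%). Same-numbered libraries correlated at -0.049, -0.046 and 0.02 in their deviations from the age means, and differently numbered ones between -0.036 and 0.068. These correlations cannot tell whether library numbers pair the samples, because deviations within an age are not independent of one another. With the replicate block, 0 regions of any name passed within peaks and 0 over the whole table. The whole-table count, 0, ran from 0 to 16 without single libraries and was 58 without both replicates 1 (56 higher at P14, 7.42% beside 1.19% of all regions, and 2 lower, 0.265% beside 2.51%), 40 by the likelihood ratio test (5.16%, beside 1.03%) and 5 by DESeq2. These whole-table shares are of all regions, stretches between peaks included, whereas every Zfp region is a peak. The median log2 change within peaks, 0.01, was 1.21 with scaling to reads between peaks and 0.17 without a TMM factor. The age difference of the clustered over isolated log2 density, 0.09, reversed to -0.06 with the median over regions and to -0.04 in regions under 1000 bp, a split chosen after seeing the data; without single libraries it ran from 0.04 to 0.14. The cause of these shifts was not tested. With filtering on library sizes of reads in peaks, also added after seeing the data, 20 Zfp regions passed (5 gained, 15 lost; 2.73%, beside 2.83%). The difference in the share of reads was 0.124 percentage points of the reads in peaks and 0.122 of all reads. Of 100 regions given a 2-fold change in counts simulated from the means and dispersions of these data, 8 were recovered within peaks. Recovery was not split by read number.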
